A study of Mus musculus with 4 samples.

Results

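Neural lineage genes were followed in mouse embryonic stem cells (mESCs) as 9 named genes, Pax6, Olig3, Tubb3, Nes, Slc1a3, Neurog1, Sox1, Sox21 and Map2. The deposited values cover 37310 genes, among which 8 of the named genes were found by symbol and Ensembl identifier, Map2 under its older name Mtap2, and Sox1 was not analysed here. The genes were chosen with the wild-type and Bmal1-/- values already known, and Pax6, Olig3 and Tubb3 had been seen to fall, so the values of all 8 are given as a description, and calls among them are counted without being read as a test. The data are mRNA-seq of JM8 mESCs of strain C57BL6/N, 2 libraries of the parental wild-type line and 2 labelled Bmal1-/-. All 4 cultures grew undifferentiated in 2i + LIF medium, which holds leukaemia inhibitory factor with the MAPK pathway inhibitor PD0325901 at 1 µM and the glycogen synthase kinase inhibitor CHIR99021 at 3 µM. The Bmal1-/- cells are a single clonal line with small insertions and deletions on both alleles, made from JM8 with CRISPR/Cas9, so that the genotype and the clone cannot be told apart. The libraries are described as biological replicates, their titles number the experiment within each label, and no batch is given. The p-values measure spread between these samples only, pooled in part over genes.

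Neural tissue forms from the ectoderm through a chain of regulators. Sox1, Sox21 and Pax6 are transcription factors of the neural plate and of dividing neural progenitors, Olig3 is a bHLH factor of the dorsal neural tube, and Neurog1 is a proneural bHLH factor that commits progenitors to a neuronal fate. Nes encodes the intermediate filament nestin of neural stem cells and Slc1a3 the glutamate transporter GLAST of radial glia and astrocytes, whereas Tubb3 and Map2 encode a beta-tubulin and a microtubule-associated protein used as markers of neurons. In naive mESCs most of these genes are held at a low level, and 2i medium blocks signals that lead to differentiation. In many non-neuronal cells the repressor Rest, bound to RE1 elements, keeps neuronal genes silent. Bmal1 (Arntl) is the bHLH-PAS factor that pairs with Clock on E-box elements. Because these are bulk samples, fewer cells of a type and less RNA per cell cannot be told apart.

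The libraries held 21504265 to 23329034 reads on genes, and 3 reads were worth 2.82 to 3.19 on the scale of the TMM-normalized read count, the unit of every value below unless another is given. Replicate profiles correlated at 0.995 in wild-type and 0.996 in Bmal1-/-. Arntl mRNA was at 678 and 733 in wild-type and at 556 and 590 under the label Bmal1-/-, with a log2 fold change of −0.30 ± 0.07 (SE; adjusted p = 0.0011, limma with Benjamini-Hochberg adjustment). That is 81.2% of wild-type, and a gene-level count does not show whether a mutation interrupts the reading frame. The paper reports frame shifts with premature stop codons from the mutations on both alleles. It detected no Bmal1 mRNA by RT-qPCR and no Bmal1 protein by Western blot in the mutant line. Why mRNA-seq and RT-qPCR differ here was not tested. Each SE is the moderated one of limma, which pools spread over genes and can be smaller than a gene's own replicate spread. All 14 markers of naive mESCs were well expressed in every library, with summed levels of 137205 to 139329 in wild-type and 148508 to 150321 in Bmal1-/-. Of these markers 8 were higher in Bmal1-/-, 5 were lower and 1 was not called.

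The promoters of the 4 genes that were lower by more than 2-fold are shown here so that their sequence can be read beside their values. Each is the part of the 250 bases upstream of the RefSeq start site that carries no annotated exon, matched to mm9, on the plus strand, 5′ to 3′. Capitals mark the searched motifs that were found (the TATA box TATAAA and the CCAAT box, and GGGCGG as the GC box).
Pax6, chr2:105508803-105509052: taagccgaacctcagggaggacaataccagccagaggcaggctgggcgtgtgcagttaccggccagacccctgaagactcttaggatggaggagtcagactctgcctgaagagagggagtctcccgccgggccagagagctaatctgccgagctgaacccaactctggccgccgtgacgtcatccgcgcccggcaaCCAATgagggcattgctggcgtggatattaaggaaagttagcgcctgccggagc
Olig3, chr10:19076095-19076344: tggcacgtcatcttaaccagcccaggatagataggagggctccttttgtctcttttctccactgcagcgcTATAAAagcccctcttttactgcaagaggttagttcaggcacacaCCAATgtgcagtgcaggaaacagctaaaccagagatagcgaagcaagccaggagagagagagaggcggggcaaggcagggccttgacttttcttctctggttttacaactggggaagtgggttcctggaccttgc
Tubb3, chr8:125935203-125935323: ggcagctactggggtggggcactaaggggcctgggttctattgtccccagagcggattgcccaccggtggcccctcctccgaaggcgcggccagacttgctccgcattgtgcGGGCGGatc
Map2, chr1:66221653-66221846: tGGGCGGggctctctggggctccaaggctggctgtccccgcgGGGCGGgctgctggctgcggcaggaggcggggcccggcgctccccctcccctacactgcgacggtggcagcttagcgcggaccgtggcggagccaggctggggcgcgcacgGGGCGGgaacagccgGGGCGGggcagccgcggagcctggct
Pax6 holds 1 CCAAT and Olig3 a TATAAA and a CCAAT, whereas the stretches of Tubb3 and Map2 hold 1 and 4 GC boxes. For these last genes 129 and 56 bases next to the RefSeq start were left out as annotated exon. The left-out bases hold 1 CCAAT and 1 GC box for Tubb3 and 1 GC box for Map2. A second Pax6 promoter, not shown, holds none of the searched motifs.

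The 8 genes have 9 promoters in the RefSeq table (GRCm38.p6), and each 250-base window matched mm9 at 1 place. Motifs were searched on both strands. The E-box CACGTG was in none of the 9 windows and in 6.02% of all 32851 promoters of the table, and its variant CACGTT was in none of the 9 and in 3.85% of all. Among the full 250-base windows of all promoters TATAAA was in 12.4%, CCAAT in 33.8% and GGGCGG in 32.7%. The absence of a match says only that these letters are not in these windows.

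**Figure D1:**
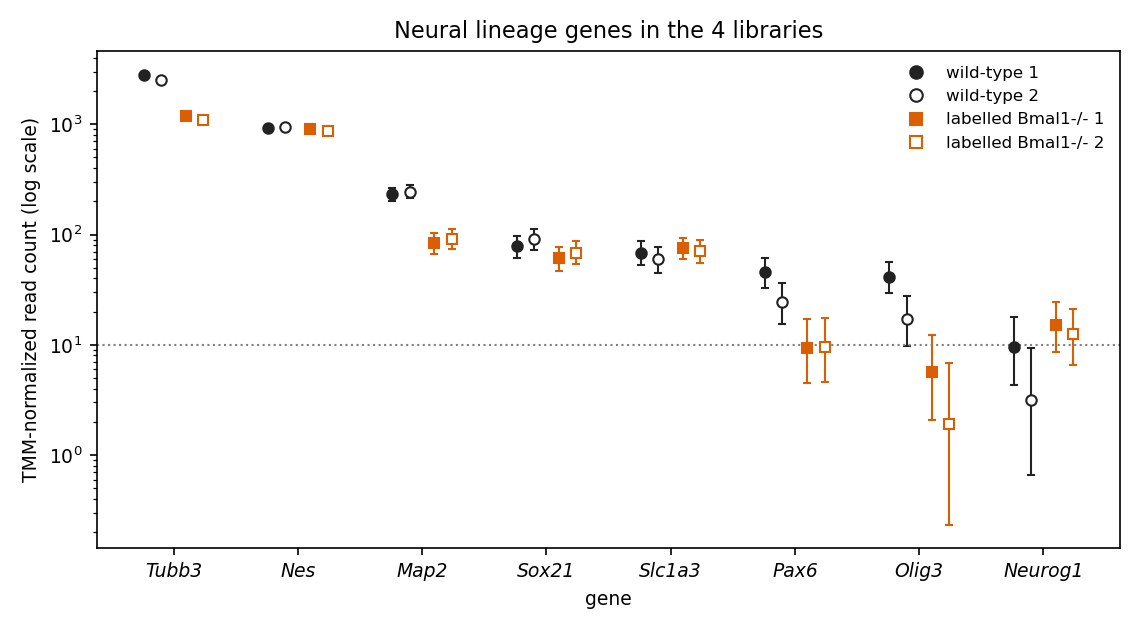
TMM-normalized read count (log scale) of the 8 neural lineage genes in each of the 4 libraries. Circles are wild-type and squares are labelled Bmal1-/-, filled for replicate 1 and open for replicate 2, bars are exact Poisson 95% intervals on the reads (counting error only), and the dotted line is the filter at 10; Tubb3, Map2, Olig3 and Pax6 lie apart between the labels, whereas Nes nearly coincides.

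Among the progenitor regulators, Pax6 and Olig3 were lower in Bmal1-/- and Sox21 was close to wild-type. Pax6 (ENSMUSG00000027168, mm9 chr2:105509053-105543317, plus strand) was at 45.3 and 24.4 in wild-type and at 9.39 and 9.54 in Bmal1-/-, which are 43 and 23 reads against 10 and 10. Both Bmal1-/- libraries lie below both wild-type libraries, while the wild-type libraries differ from each other more than the Bmal1-/- libraries do. The log2 fold change was −1.71 ± 0.35 (SE, 2 against 2 libraries), a mean 3.68-fold lower, or 27.1% of wild-type. It was −1.28 with wild-type replicate 1 left out, and −2.15 with wild-type replicate 2 left out.

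Olig3 (ENSMUSG00000045591, chr10:19076366-19078412, plus strand) had the lowest share of its wild-type level among the 8 genes. Its values were 41.1 and 17.0 in wild-type and 5.64 and 1.91 in Bmal1-/-, from 39 and 16 reads against 6 and 2. The groups do not overlap, and the higher wild-type library is again replicate 1. On the log2 scale replicate 1 exceeded replicate 2 by 1.23 in wild-type and by 1.19 in Bmal1-/-. The log2 fold change was −2.65 ± 0.50 (SE), and the mean in Bmal1-/- was 13.0% of wild-type, 7.70-fold lower. This size rests on few reads: it was −2.03 with wild-type replicate 1 left out, −3.26 with wild-type replicate 2 left out and −1.44 with a pseudocount of 10 in place of 1, where Pax6 was at −1.16.

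Sox21 (ENSMUSG00000061517, chr14:118632454-118636252, minus strand), a SoxB2 factor of neural progenitors, was at 78.0 and 91.4 in wild-type and at 61.1 and 68.7 in Bmal1-/-. Both Bmal1-/- libraries are lower, by a log2 fold change of −0.38 ± 0.17 (SE), yet the exact Poisson 95% interval of wild-type replicate 1, 61.2 to 97.9, overlaps those of both Bmal1-/- libraries, 47.1 to 77.8 and 53.7 to 86.5. These intervals cover counting error only.

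Neurog1 (ENSMUSG00000048904, chr13:56351866-56353524, minus strand), the proneural factor, was barely detected. Its values were 9.48 and 3.19 in wild-type and 15.0 and 12.4 in Bmal1-/-, from 9 and 3 reads against 16 and 13. Here both Bmal1-/- libraries are above both wild-type libraries. The log2 fold change of 1.15 ± 0.49 (SE) was 0.48 when wild-type replicate 2 was left out and 1.81 when wild-type replicate 1 was, and the mean over the 4 libraries only just passed the filter.

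The progenitor and glial markers kept levels near those of wild-type. Nes (ENSMUSG00000004891, chr3:87775000-87784373, plus strand) was at 921 and 950 in wild-type and at 897 and 870 in Bmal1-/-, a log2 fold change of −0.08 ± 0.06 (SE). Slc1a3 (ENSMUSG00000005360, chr15:8584124-8660764, minus strand) was at 68.5 and 59.5 in wild-type and at 75.2 and 70.6 in Bmal1-/-, a log2 fold change of 0.19 ± 0.18 (SE). For Slc1a3 the direction depends on the scaling, since the value was −0.03 under quantile normalization.

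Both neuronal cytoskeletal genes were lower in Bmal1-/-. Tubb3 had been seen to fall before it was chosen, so its difference set against its error is no test. Tubb3 (ENSMUSG00000062380, chr8:125935324-125945915, plus strand) was at 2785 and 2512 in wild-type and at 1192 and 1088 in Bmal1-/-, from 2644 and 2365 reads against 1269 and 1141. The Bmal1-/- mean was 43.0% of wild-type, a log2 fold change of −1.22 ± 0.06 (SE), or 2.32-fold lower. Leaving out any single library gave values from −1.29 to −1.14.

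Map2 (ENSMUSG00000015222, chr1:66221847-66489157, plus strand) was at 232 and 245 in wild-type and at 83.6 and 91.5 in Bmal1-/-, from 220 and 231 reads against 89 and 96. Its libraries separate by label with a narrow spread inside each label. The log2 fold change was −1.44 ± 0.13 (SE), which is 2.72-fold lower or 36.7% of wild-type, and it was −1.37 when Bmal1-/- replicate 1 was left out, the smallest size that leaving out a library gave.

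Counted over the 8 genes, 6 were lower and 2 (Neurog1 and Slc1a3) higher in Bmal1-/- with no overlap between the libraries of the labels. Over all 14510 genes tested, 41.4% were lower and 34.6% higher by that measure. Pax6, Olig3, Tubb3 and Map2 were past both a 2-fold difference and an adjusted p-value of 0.05, the calls of 1.45% of all genes in the lower direction, and none was past both in the higher direction, where 5.75% of all genes were. As the genes were chosen on this contrast, nothing is read from these counts. All 8 passed the filter on a mean of 10, but Pax6 and Olig3 did so only through their wild-type libraries and Neurog1 only through its Bmal1-/- libraries. The median log2 fold change of the 8 genes was −0.80 and that of all tested genes −0.03.

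**Figure D2:**
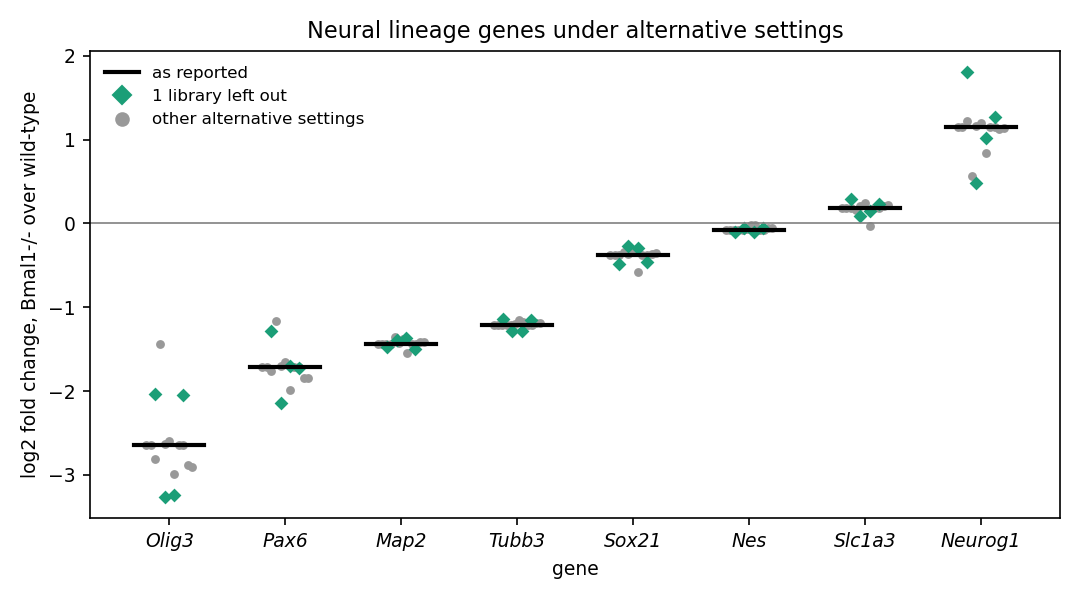
Log2 fold change (Bmal1-/- over wild-type) of each neural lineage gene as reported (black bars), with 1 library left out (green diamonds) and under the other alternative settings (grey points). Tubb3 and Map2 keep within a narrow band below −1, whereas Olig3 ranges from −3.26 to −1.44 and Neurog1 from 0.48 to 1.81.

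Per kilobase of exon, the wild-type levels spread widely, and Tubb3 stood far above the rest. Tubb3 was at 1418 normalized reads per kilobase in wild-type, at percentile 92.9 of the tested genes, and Nes followed at 146, at percentile 52.9. The other members were low: Sox21 at 22.3, Map2 at 14.5, Olig3 at 14.2, Slc1a3 at 7.49, Neurog1 at 3.82 and Pax6 at 1.76 normalized reads per kilobase, between percentiles 22.1 and 1.33. Map2 and Olig3 do not differ in this order beyond their spread, since the wild-type libraries gave 14.1 and 14.9 for Map2 and 20.1 and 8.30 for Olig3. In Bmal1-/- the order after Tubb3 (610), Nes (138) and Sox21 (17.1) was Slc1a3 at 8.53, Neurog1 at 8.27, Map2 at 5.32, Olig3 at 1.84 and Pax6 at 0.477. Slc1a3 and Neurog1 do not differ in this order beyond their spread, with 8.80 and 8.27 against 9.06 and 7.47 in the Bmal1-/- libraries. Pax6 is last in both labels, and its per-length value divides by 19833 bases of merged exons, the longest of the 8.

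The low counts also show how the annotation could bear on single genes. Pax6 shares 5542 exon bases with Elp4, an Elongator subunit gene on the opposite strand, and 30.6% of the 75-base windows of Pax6 transcripts occur in Elp4 too. Elp4 was at 304 and 345 in wild-type and at 303 and 331 in Bmal1-/- (log2 fold change −0.03, adjusted p = 0.79, limma with Benjamini-Hochberg adjustment). The library kit keeps the strand, but whether counting used it is not given in the sources used here. Sox21 shares 713 exon bases with the lincRNA Gm4675 on the opposite strand, which was at 15.8 and 23.4 in wild-type and at 9.39 and 10.5 in Bmal1-/- (log2 fold change −0.89, adjusted p = 0.050). The other genes, Tubb3 among them, share no 75-base window with another protein-coding gene, so no read of that length within a Tubb3 transcript is identical to one of another tubulin transcript.

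For Pax6 the study's own RT-qPCR primers show which part of the gene its other expression readout covers, which a gene-level read count does not resolve.
Pax6 forward: caccagactcacctgacacc
Pax6 reverse: accgcccttggttaaagtc
The forward primer lies at chr2:105509170-105509189 in the first exon of 7 of the 33 annotated transcripts, and the reverse primer at chr2:105519973-105519991 in an exon of 14 of the 33. Both lie outside the coding sequence, and they span 10822 bases of the genome.

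Genes near the members were compared to see whether a difference was shared along the chromosome. Of all genes tested 52.6% were called at an adjusted p-value under 0.05, so nothing is read from how many neighbours were called. The tested coding genes next to Tubb3 were Tcf25, 7.25 kb away at a log2 fold change of −0.28 (adjusted p = 5.9e-06, limma), and Def8, 21.0 kb away at −0.30 (adjusted p = 1.2e-05, limma). Both were lower, each by far less than Tubb3. Next to Map2, Unc80 was 25.8 kb away and higher by 0.53 (adjusted p = 0.033, limma), and Pikfyve, 901 kb away, was higher by 0.70 (adjusted p = 7.5e-09, limma), the direction opposite to that of Map2. Around Pax6, Rcn1 was at 0.01 (adjusted p = 0.88, limma) and Immp1l at −0.29 (adjusted p = 0.012, limma). Around Olig3, Tnfaip3 was at −0.24 (adjusted p = 0.59, limma) and Ifngr1 at −0.04 (adjusted p = 0.84, limma), so no neighbour of Olig3 was called. The call of Immp1l was lost in 6 of the 16 alternatives, as without wild-type replicate 2 (−0.16) or Bmal1-/- replicate 1 (−0.27). That of Unc80 was lost in 8, as without wild-type replicate 2 (0.39), Bmal1-/- replicate 1 (0.43) or Bmal1-/- replicate 2 (0.64).

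Neurog1, Nes, Slc1a3 and Sox21 each had at least 1 neighbour that was called. As 52.6% of single genes tested were called, nothing is read from this. The chemokine gene Cxcl14, 36.5 kb from Neurog1, was higher by a log2 fold change of 0.97 (adjusted p = 1.3e-06, limma), and Tifab on the other side was at 0.39 (adjusted p = 0.058, limma). Nes lies between Crabp2, a retinoic acid binding protein gene 17.7 kb away at −0.92 (adjusted p = 0.0077, limma), and Bcan, a brain proteoglycan gene 7.08 kb away at 0.65 (adjusted p = 0.0061, limma), which went in opposite directions while Nes was at −0.08. Nipbl, 190 kb from Slc1a3, was higher by 0.44 (adjusted p = 5.1e-08, limma), and 1110020G09Rik on the other side was at 0.02 (adjusted p = 0.73, limma). Gpr180, 69.0 kb from Sox21, was lower at −0.30 (adjusted p = 0.0025, limma), and so was Abcc4 at −0.15 (adjusted p = 0.027, limma), a call lost in 10 of the 16 alternatives, among them those without wild-type replicate 1 (−0.11), Bmal1-/- replicate 1 (−0.13) or Bmal1-/- replicate 2 (−0.16). The call of Crabp2 was lost in 4 alternatives, as without Bmal1-/- replicate 2 (−0.56). That of Bcan was lost in 3, as without Bmal1-/- replicate 1 (0.64), and that of Gpr180 in DESeq2.

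Close relatives of the members went in several directions. Of 7 other beta-tubulin genes 6 were tested, of which 3 were lower and 2 higher. Tubb2a, also expressed in neurons, was at 431 and 439 in wild-type and at 673 and 606 in Bmal1-/- (log2 fold change 0.55, adjusted p = 3.3e-06, limma), opposite to Tubb3. Tubb4a was lower by a log2 fold change of −1.05 (adjusted p = 0.020, limma), from 22.1 and 19.1 to 8.45 and 10.5. It passed the filter on a mean of 10 only through its wild-type libraries. The abundant Tubb5 moved less, from 55606 and 53727 to 49309 and 49154 (−0.15 on the log2 scale, adjusted p = 0.0020, limma), and was at 0.03 under quantile normalization. Tubb2b was at −0.12 (adjusted p = 0.012, limma), Tubb6 was higher by 0.35 (adjusted p = 9.6e-05, limma), and Tubb4b was not called at −0.02 (adjusted p = 0.69, limma), a sign that turned under equal totals, quantile normalization, edgeR and DESeq2. Tubb4a lost its call in 4 of the 16 alternatives, as without wild-type replicate 1 (−0.95) or Bmal1-/- replicate 1 (−0.91). Tubb2b lost its call in 6, as without wild-type replicate 1 (−0.09) or Bmal1-/- replicate 2 (−0.11), and Tubb5 with no trend.

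Mapt, which encodes the axonal microtubule-associated protein tau, was higher by a log2 fold change of 0.37 (adjusted p = 3.7e-06, limma), from 1328 and 1391 to 1765 and 1755, opposite to Map2. Among the relatives of Olig3, Olig1 was lower at −0.35 (adjusted p = 8.9e-04, limma), from 452 and 493 to 372 and 366, and Olig2 was not called at −0.16 (adjusted p = 0.14, limma). Neither difference approached that of Olig3 in size. Neurog2 had 3 or fewer normalized reads in every library and Neurog3 between 0 and 5.27, too few to test. Of 6 other Slc1a genes 3 were tested. Slc1a1, the neuronal and epithelial glutamate transporter EAAC1, rose from 178 and 174 to 1015 and 1170 (2.62 on the log2 scale, adjusted p = 8.4e-16, limma), whereas the neutral amino acid transporters Slc1a4 and Slc1a5 were not called at 0.06 (adjusted p = 0.36, limma) and 0.02 (adjusted p = 0.72, limma).

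Other neural genes were grouped in 4 lists with no member in them, and 91 of their 171 genes passed the filter. The lists were written by hand with earlier results of these data known. Their counts are therefore a description, and no neural trend is read from them. Of the 91 genes 36 (39.6%) were lower and 17 (18.7%) higher at an adjusted p-value under 0.05 (limma), against 28.6% of all genes tested that were lower and 3488 of 14510 that were higher. Past 2-fold, 10 were lower and 2 higher, against 1.45% of all genes tested that were lower and 5.75% that were higher. The median log2 fold change of the 91 genes was −0.19. Between the wild-type libraries, 60 of the 91 genes (65.9%) were higher in replicate 1 than in replicate 2, against 51.0% of all tested genes, the side on which Pax6, Olig3, Neurog1, Slc1a3 and Tubb3 also lay. The part of this wild-type spread in the differences between the labels was not tested.

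**Figure D3:**
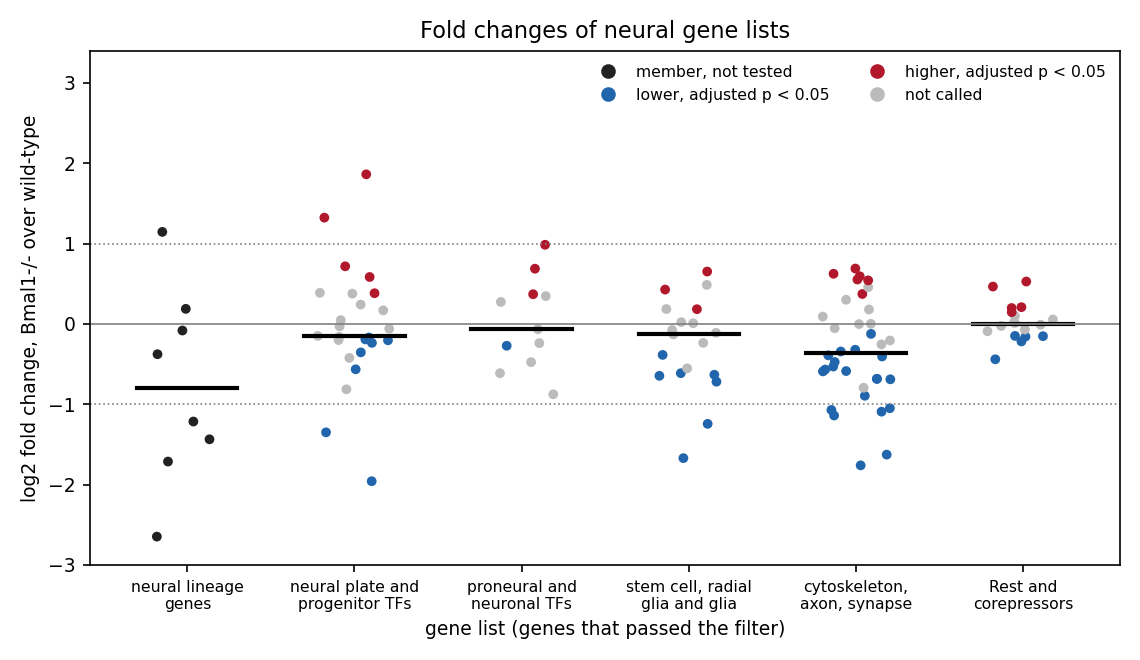
Log2 fold change (Bmal1-/- over wild-type) of every tested gene of the members and of the hand-written lists, one point per gene. Blue points were lower and red points higher at an adjusted p-value under 0.05 (limma), and grey points were not called. Black points are the members, and dotted lines mark 2-fold. The neuronal cytoskeleton, axon and synapse genes have 69.4% of their points below 0, against 53.5% of all genes tested.

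The neuronal cytoskeleton, axon and synapse genes had more lower than higher calls. Of 36 tested (47 listed) 20 were lower, 6 higher and 10 not called, with a median log2 fold change of −0.37. The shares were 55.6% lower and 16.7% higher, against 28.6% of all genes tested that were lower and 3488 of 14510 that were higher. Past 2-fold, 1.45% of all genes tested were lower and 5.75% higher. This list was written by hand with earlier results of these data known, so no trend is read from its counts. All 6 genes past 2-fold were lower: Gap43, a growth cone protein gene, from 20.0 and 23.4 to 5.64 and 5.72 (−1.76 on the log2 scale, adjusted p = 8.8e-04, limma), Crmp1, a semaphorin signalling gene, from 475 and 484 to 159 and 151 (−1.63, adjusted p = 1.2e-11), Gad1 and Gad2, the genes of the GABA-making enzymes (−1.14, adjusted p = 8.8e-06, and −1.07, adjusted p = 0.029), Prph, a neuronal intermediate filament gene (−1.09), and Tubb4a. Tuba1a, an alpha-tubulin gene and among the most abundant of the list, was lower by a log2 fold change of −0.68 (adjusted p = 1.3e-11, limma), from 7271 and 7260 to 4577 and 4468. Gap43 and Tubb4a passed the filter on a mean of 10 only through their wild-type libraries. Other genes of this list rose. Dpysl3, a relative of Crmp1, was higher by 0.69 (adjusted p = 5.2e-08, limma), from 923 and 781 to 1329 and 1410, and Nefh, the heavy neurofilament gene, by 0.62 (adjusted p = 1.1e-07, limma). Thy1 was higher by 0.59 (adjusted p = 0.026, limma), a call lost in 8 of the 16 alternatives, as without wild-type replicate 1 (0.43), Bmal1-/- replicate 1 (0.70) or Bmal1-/- replicate 2 (0.49). Dcx, a marker of migrating neurons, had 0 reads in all 4 libraries, which allows up to 3 reads in each.

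**Figure D4:**
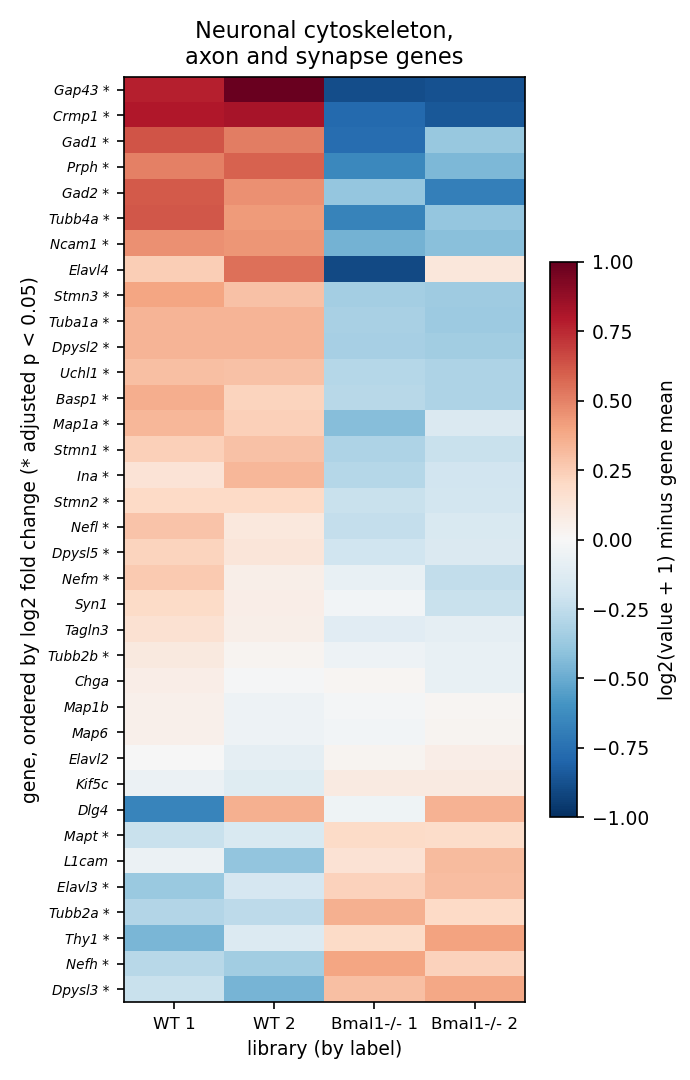
Level of each tested neuronal cytoskeleton, axon and synapse gene in the 4 libraries, as log2(value + 1) minus the mean of the gene, ordered by log2 fold change; an asterisk marks an adjusted p-value under 0.05 (limma). The 20 lower genes at 1 end and the 6 higher genes at the other have no overlap between the libraries of the labels. Of this list 23 tested genes were lower by that measure, called or not. Over all genes tested, 41.4% were lower and 34.6% higher by it.

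The neural stem cell, radial glia and glial markers gave 7 lower, 3 higher and 9 not called of 19 tested (32 listed), with a median log2 fold change of −0.13. The shares were 36.8% lower and 15.8% higher, against 28.6% of all genes tested that were lower and 3488 of 14510 that were higher. The largest fall was that of Vim, the vimentin gene of progenitors and of many mesenchymal cells, from 3626 and 3458 to 1117 and 1106 (−1.67 on the log2 scale, adjusted p = 2.0e-16, limma). Mbp, the myelin basic protein gene, fell from 311 and 304 to 132 and 127 (−1.24, adjusted p = 6.6e-09, limma), and Cd24a, a surface glycoprotein gene of many progenitors, was lower by −0.72 (adjusted p = 2.6e-10, limma). Among the called genes Bcan was the highest at 0.65, followed by the receptor gene Notch1 at 0.43 (adjusted p = 2.6e-05, limma). The RNA-binding protein gene Msi2 was higher by 0.18 (adjusted p = 0.016, limma). Msi2 lost its call in 5 of the 16 alternatives, as without wild-type replicate 2 (0.10) or Bmal1-/- replicate 2 (0.15), and Notch1 with no trend. Glul, the abundant glutamine synthetase gene, was not called at 0.02 (adjusted p = 0.72, limma). Fabp7, a defining radial glia marker, had 0 reads in all 4 libraries, and Gfap of astrocytes was at 8.43 and 10.6 in wild-type and 8.45 and 10.5 in Bmal1-/-, below the filter.

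The neural plate and progenitor transcription factors went in both directions, at shares near those of all genes tested. Of 25 tested (48 listed) 8 were lower, 5 higher and 12 not called, with a median log2 fold change of −0.15. That is 32.0% lower and 20.0% higher, against 28.6% of all genes tested that were lower and 3488 of 14510 that were higher. Zfp521, a zinc finger factor that promotes the neural fate of mESCs, was lower from 30.6 and 51.0 to 8.46 and 10.5 (−1.96, adjusted p = 4.9e-05, limma), Nkx6-2, a ventral homeobox factor, from 374 and 359 to 150 and 136 (−1.35, adjusted p = 1.0e-09, limma), and Hesx1, an anterior homeobox factor, by −0.56 (adjusted p = 1.1e-04, limma). In the other direction Sox3, the SoxB1 relative of Sox2, was higher from 19.0 and 23.4 to 59.2 and 49.6 (1.32, adjusted p = 1.4e-04, limma), and Sox8 from 3.16 and 8.50 to 26.3 and 18.1 (1.86, adjusted p = 0.0016, limma). The call of Sox8, from 3 and 8 reads in wild-type, was lost without the filter and without the trend. Zfp521 passed the filter on a mean of 10 only through its wild-type libraries, and Sox8 only through its Bmal1-/- libraries. Sox2, shared by pluripotent and neural cells, was at −0.17 (adjusted p = 0.0024, limma). Its call was lost with no filter, with no trend and without Bmal1-/- replicate 1 (−0.13). Tcf7l1 was not called at −0.03 (adjusted p = 0.62, limma), and its sign turned under equal totals, quantile normalization and DESeq2.

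Most proneural and neuronal transcription factors were too low to test. Of 44 listed 11 were tested, with 1 lower, 3 higher and 7 not called and a median log2 fold change of −0.07. The shares were 9.09% lower and 27.3% higher, against 28.6% of all genes tested that were lower and 3488 of 14510 that were higher. The lower gene was Ebf1 at −0.27 (adjusted p = 0.019, limma), and the higher genes were Hivep2 at 0.98 (adjusted p = 3.9e-04, limma), the motor neuron factor Isl1 at 0.69 (adjusted p = 0.027, limma) and the sensory neuron factor Pou4f1 at 0.37 (adjusted p = 0.015, limma). The calls of Ebf1 and Isl1 were each lost in 7 of the 16 alternatives and that of Pou4f1 in 5. Among these were, for Ebf1, the fits without wild-type replicate 1 (−0.19) or Bmal1-/- replicate 1 (−0.21), for Isl1 those without wild-type replicate 2 (0.51) or Bmal1-/- replicate 2 (0.46), and for Pou4f1 those without wild-type replicate 2 (0.31), Bmal1-/- replicate 1 (0.38) or Bmal1-/- replicate 2 (0.36). Gsx2 of the preceding list and Pou3f1 of this list are at 0 in every library, and 92.4% and 99.8% of their exon bases are annotated in a second gene on the same strand, so a 0 there does not measure their level.

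Rest, the repressor of neuronal genes, was higher in Bmal1-/- by a small margin, at 7787 and 7217 in wild-type and 8453 and 8877 in Bmal1-/- (log2 fold change 0.21, adjusted p = 3.9e-04, limma), a call lost without the filter and without the trend. All 18 genes of the list of Rest and its corepressors were tested, with 5 lower, 5 higher and 8 not called and a median of 0.00. Each direction held 27.8% of the list, against 28.6% of all genes tested that were lower and 3488 of 14510 that were higher. The corepressor Rcor3 was higher by 0.46 (adjusted p = 0.0018, limma) and the phosphatase gene Ctdspl by 0.53 (adjusted p = 0.026, limma), and Ctdsp1 of the same phosphatase family was lower by −0.44 (adjusted p = 3.1e-06, limma). The methyltransferase gene Ehmt2 (−0.22, adjusted p = 3.9e-04, limma), the deacetylase gene Hdac1 (−0.15, adjusted p = 0.0020, limma) and Hmg20b (−0.16, adjusted p = 0.017, limma) were lower as well. The call of Ctdspl was lost in 5 of the 16 alternatives and that of Hmg20b in 6, for both also without Bmal1-/- replicate 2 (0.40 and −0.13), and those of Ehmt2 and Hdac1 were lost with no trend. No gene of this list was past 2-fold.

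Markers of other cells were followed beside these genes, and their part in the neural differences was not tested. Of 20 neural crest and surface ectoderm markers 15 were tested, with 3 lower and 5 higher, and the summed levels were 6310 to 6380 in wild-type and 4735 to 4785 in Bmal1-/-. Of 14 mesoderm and endoderm markers 8 were tested, with 2 lower and 2 higher, and the sums were 749 to 767 in wild-type and 618 to 634 in Bmal1-/-. Of 10 fibroblast markers 3 were tested and 1 was higher, Pdgfrb, and the sums were 121 to 134 in wild-type and 281 to 289 in Bmal1-/-. The fibroblast markers Dcn, Lum and Fap and the crest marker Tfap2b had 0 reads in every library.

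The genes whose pattern over the 4 libraries was most like that of a member were found among the 14510 tested genes by the Euclidean distance of log2(value + 1) after centring each gene, as a description over 4 libraries that share their labels. For Tubb3 these were Kctd15 (distance 0.0568), at 396 and 370 in wild-type and 178 and 160 in Bmal1-/-, and Mbp (distance 0.104). For Pax6 they were AC027184.1 (distance 0.307), at 88.5 and 38.2 in wild-type and at 16.0 and 14.3 in Bmal1-/-, and AC115697.1 (distance 0.335), and for Olig3 Pdlim4 (distance 0.651), at 29.5 and 19.1 against 6.58 and 2.86, and Rimbp2 (distance 0.863). The nearest patterns to Pax6 and Olig3 share their higher value in wild-type replicate 1, which follows from choosing them on these same 4 libraries.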

How the data were processed

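Poly(A) RNA of 4 cultures was sequenced by the authors as paired 75-base stranded reads. The submitters' processing notes name bcl2fastq 2.18.0.12, cutadapt 1.9.1 and STAR 2.5.2b, and the genome was mm9. The counting tool and its strand setting are not given in the sources used here. The deposited signal is the read count of each gene divided by a library factor of the authors (TMM). Every value was a whole multiple of 1 number per library (tolerance 0.01 of a read), so whole reads were recovered for 100% of values.

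From these, log2(value + 1) was fitted with limma 3.58.1 (eBayes with trend, R 4.3.3), 2 against 2 libraries, for the 14510 genes whose mean reached 10, with p-values adjusted over all of them (Benjamini-Hochberg). Alternatives were other filters, pseudocounts and scalings, no trend, a replicate block, each library left out, and edgeR 4.0.16 and DESeq2 1.42.0 on the recovered reads, which called 3864 and 2536 genes lower and 3818 and 2690 higher. The tests were checked on simulated data.

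The members and the gene lists, written by hand, were chosen with earlier results of these data known. From each list the 3 highest and 3 lowest called genes, the 2 most abundant genes and relatives of members are named, with the nearest tested neighbours of the members, the 2 genes closest in pattern to Pax6, Olig3 and Tubb3, and Arntl. Prph, Gad2, Elp4, Gm4675, Gfap, Pdgfrb and genes at 0 were named after their values were seen. Matching used GENCODE for mm9 and RefSeq, with 10 list genes under an older symbol. A gene the rule picks is not reported here.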

Additional observations from a re-analysis of the deposited data

How the results depend on the processing

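Among the members, the values that moved by more than the spread between replicates came from 3 alternatives. Fits with 1 library left out could not count here, because that spread is built from the same replicate differences. Filters, no trend and the replicate block leave the value of a tested gene unchanged. With 1 library left out Olig3 ranged from −3.26 to −2.03. Quantile normalization gave −0.58 for Sox21, −0.02 for Nes, −0.03 for Slc1a3 and −1.55 for Map2, equal totals −0.02 for Nes, and a pseudocount of 10 −1.16 for Pax6, −1.44 for Olig3 and −1.35 for Map2. The 4 members past 2-fold became 2 with a mean of at least 100, where Pax6 and Olig3 are not tested. Genes lower numbered 4151, with 2515 for no trend and 2536 for DESeq2. With 1 library left out they ranged from 3199 to 4037, and genes higher, 3488 in all, from 2622 to 3523. Of the 50 named genes that were called, 27 kept the call under every alternative. No scaling moved the median of all genes by more than 0.1. Low reads limit Pax6, Olig3 and Neurog1 most. The cause of the changes below was not tested.

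The sign turned for named genes that had not been called, and for Tubb5, to 0.032 under quantile normalization. Tcf7l1 was at 0.029 with equal totals, 0.012 with quantile normalization and 2.2e-05 in DESeq2. Tubb4b was at 0.041 with equal totals, 0.045 with quantile normalization, 0.0046 in edgeR, 0.011 in DESeq2 and −0.043 to 0.0045 with 1 library left out. Ifngr1 was at 0.017 with equal totals. With 1 library left out Glul ranged from −0.0096 to 0.054, Slc1a5 from −0.0030 to 0.039, Rcn1 from −0.047 to 0.065 and 1110020G09Rik from −0.043 to 0.092.

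The median of the neural plate and progenitor transcription factors was −0.17 with a mean of at least 1 and also at least 100, −0.089 with equal totals, −0.12 in edgeR and −0.12 in DESeq2, and −0.15 to −0.049 with 1 library left out. They had 5 lower with no filter and 5 to 9 with 1 library left out, and 2 higher with no filter, 1 with a mean of at least 100, 3 with a mean of at least 1, quantile normalization, no trend or DESeq2, and 3 to 4 with 1 library left out. The proneural and neuronal factors had a median of −0.24 with a mean of at least 100, −0.29 with quantile normalization and −0.13 to 0.032 with 1 library left out. They had 0 lower with no filter, a mean of at least 1, equal totals, no trend or DESeq2 (limma called 1 of 11 tested), 2 with a pseudocount of 10, 5 with quantile normalization and 0 to 2 with 1 library left out. They had 1 higher with a mean of at least 100, quantile normalization or DESeq2, and 1 to 4 with 1 library left out.

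The progenitor and glial markers had a median of −0.072 with equal totals, −0.34 with quantile normalization and −0.18 to −0.067 with 1 library left out, with 5 to 8 lower and 2 to 3 higher. The neuronal cytoskeleton, axon and synapse genes had −0.26 with no filter, −0.29 with a mean of at least 1, −0.31 with equal totals and −0.40 to −0.30 with 1 library left out, with 17 to 20 lower and 5 to 6 higher. The Rest list had a median of 0.016 with median-ratio factors, 0.061 with equal totals, 0.028 with quantile normalization, 0.024 in edgeR, 0.031 in DESeq2 and −0.029 to 0.024 with 1 library left out. It had 3 lower with no filter or equal totals, 1 with no trend and 4 to 6 with 1 library left out, and 3 higher with no filter, 2 with no trend and 2 to 6 with 1 library left out. Over all 4 neural lists 9 genes were higher with a mean of at least 100 and 11 with quantile normalization or DESeq2, and with 1 library left out 11 to 16 were higher and 31 to 39 lower.

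The replicate number as a block gave 4332 genes lower and 3617 higher, left 4 members past 2-fold, and made 2 proneural and neuronal factors lower in place of 1. The titles number the experiments alike in both labels, and no source used here says what libraries of the same number share. Same-numbered libraries did not deviate together (correlation −0.02 over genes), which does not show that nothing is shared.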
